A study of Mus musculus with 4 samples.

Results

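The cells described here came from a sort of bone marrow progenitors 9 days after 5-fluorouracil (5-FU). RNA of several protease, peroxidase and related genes of neutrophil granules was counted in them. The cells were chosen by measured values. A cell was kept when at least 3 of the 5 genes Mpo, Elane, Ctsg, Prtn3 and Ms4a3 had a UMI in it, a UMI (unique molecular identifier) being 1 counted RNA molecule. The rule kept 975 of 9029 cells of the 5-FU library that carried 1 hashtag, or 10.8% (95% interval 10.2 to 11.5). It kept 669 Sin3B+/+ and 306 Sin3B-/- cells, called granule-gene cells below. The whole series holds 25236 such single-hashtag cells over both of its conditions.

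The series asked how loss of Sin3B, a scaffold of the SIN3 histone deacetylase complex, alters the transcriptome of blood stem and progenitor cells at homeostasis and under stress. LSK cells (lineage-negative, Sca-1+, cKit+ marrow cells, which hold the stem cells and multipotent progenitors) were sorted from C57BL/6 mice that had received 100 mg/kg 5-FU intraperitoneally 9 days before harvest. The antimetabolite kills cycling progenitors, so stem cells are drawn into regrowth. Both genotypes carried the floxed Sin3B allele on both copies. Sin3B-/- mice also carried Vav1-iCre, whose promoter is active in blood cells from the embryo onwards, so the deletion was present well before 5-FU was given. Cells of 2 mice were pooled per genotype, and the 2 pools were tagged with different anti-CD45 hashtag antibodies and run as 1 library. GEO's labels give both genotypes for the library as a whole, and which hashtag marks which genotype is taken from the study's methods. With 1 pool per genotype there is no replicate, so no test was made and no p-value is given. Intervals here are 95% intervals for counting error, and they hold nothing of the spread between mice.

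Neutrophils are made in marrow from multipotent progenitors through granulocyte-monocyte progenitors. The primary, or azurophil, granules are filled first, with myeloperoxidase (Mpo), neutrophil elastase (Elane), cathepsin G (Ctsg) and proteinase 3 (Prtn3), while the lactoferrin and cathelicidin of the secondary granules follow later. PU.1 and the C/EBP factors drive these genes, and low levels of several of them in LSK cells are the usual meaning of neutrophil priming. Ms4a3 encodes a membrane protein used to mark granulocyte-monocyte progenitors.

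Single-hashtag cells numbered 5302 Sin3B+/+ and 3727 Sin3B-/- of 12753 barcodes, with 434 barcodes carrying both hashtags and 3290 carrying neither. The granule-gene cells were deep. Their median was 15387 UMIs in Sin3B+/+ and 27298.5 in Sin3B-/- cells, against 8808 and 10645 in the other cells. A rule that asks for a UMI is met more readily in a deep cell, so shares are also given with each cell thinned at random to 4000 UMIs. Thinning left out 12.3% of Sin3B+/+ and 7.41% of Sin3B-/- cells as too shallow, among them 9 and 1 of the granule-gene cells. The median share of mitochondrial UMIs was 3.14% and 3.00% in granule-gene cells. Sin3b itself, the targeted gene, had 112 CPM (UMIs per 1000000 UMIs of the pool) in Sin3B+/+ granule-gene cells (1317 UMIs) and 10.4 in Sin3B-/- granule-gene cells (97 UMIs), a log2 ratio of -3.41 (-3.73 to -3.12). The other cells had 113 and 15.5, so the hashtags and the genotype go together in both sets.

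The 5 rule genes were not alike, and Prtn3 was the least selective. Prtn3 had a UMI in 99.9% of Sin3B+/+ and 100% of Sin3B-/- granule-gene cells, but also in 84.0% and 86.0% of the other cells. Elane had a UMI in 15.4% and 23.2% of granule-gene cells and in 0.842% and 0.965% of the other cells. Prtn3 and Elane lie next to each other on mouse chromosome 10, with starts 6645 bases apart. With Mpo and Ctsg they share the letters GAGGAA, a short purine-rich string of the kind that PU.1-type factors bind. Binding was not measured. The 250 bases before the start of these 4 genes are printed because they hold the same letters although the genes were detected in very different shares of the other cells. The sequences are RefSeq's on build GRCm38.p6, 5′ to 3′ on the strand of the gene, with the letters GAGGAA in capitals.
Prtn3 promoter: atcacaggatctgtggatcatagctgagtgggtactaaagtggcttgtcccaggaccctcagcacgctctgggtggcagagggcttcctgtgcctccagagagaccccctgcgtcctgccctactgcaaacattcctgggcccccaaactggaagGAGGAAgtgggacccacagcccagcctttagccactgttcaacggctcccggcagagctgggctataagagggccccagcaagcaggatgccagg
Elane promoter: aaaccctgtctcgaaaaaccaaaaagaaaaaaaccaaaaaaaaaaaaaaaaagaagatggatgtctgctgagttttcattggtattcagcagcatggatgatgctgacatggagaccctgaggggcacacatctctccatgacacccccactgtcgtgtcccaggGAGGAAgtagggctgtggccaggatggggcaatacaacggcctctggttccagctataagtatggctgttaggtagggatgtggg
Mpo promoter: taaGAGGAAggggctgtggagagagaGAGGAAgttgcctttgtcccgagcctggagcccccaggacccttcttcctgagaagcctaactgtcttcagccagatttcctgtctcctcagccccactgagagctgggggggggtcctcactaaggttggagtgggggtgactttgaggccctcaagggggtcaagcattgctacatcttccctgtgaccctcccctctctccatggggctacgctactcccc
Ctsg promoter: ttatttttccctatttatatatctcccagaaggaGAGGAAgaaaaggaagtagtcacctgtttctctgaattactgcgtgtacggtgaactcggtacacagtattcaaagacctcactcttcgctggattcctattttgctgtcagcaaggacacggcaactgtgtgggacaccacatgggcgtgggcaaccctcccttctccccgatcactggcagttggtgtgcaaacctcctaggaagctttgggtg

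The Prtn3 stretch is chr10:79879417-79879666 on the plus strand, and its single match lies 95 bases before the start. For Elane (chr10:79886062-79886311, plus strand) the match lies 85 bases before the start. Mpo (chr11:87793534-87793783, plus strand) has 2 matches, the nearer 224 bases away, and Ctsg (chr14:56102575-56102824, minus strand) has 1 at 216 bases. Ms4a3 has none. GAGGAA on either strand is found in 7639 of 32851 promoters of this length (23.3%), so it is a common string. TGTGGT, the core that RUNX factors bind, is present in the Ctsg stretch only and in 14.0% of all promoters. The C/EBP-type pattern TTNNGNAA is in the Ms4a3 stretch only and in 36.8% of all promoters. A match describes the letters and not a bound site.

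The levels of the rule genes in the granule-gene cells follow from the choice and are given as a description. Mpo had 545.8 CPM in Sin3B+/+ granule-gene cells and 503.5 in Sin3B-/- ones, against 25.4 and 8.99 in the other cells. Ctsg had 579.9 and 597.4 against 6.75 and 2.84. Prtn3 had 963.6 and 1070.4 against 533.1 and 428.7, the smallest contrast of the 5. Elane had 155.4 and 272.3 against 0.841 and 0.760. Ms4a3 had 146.1 and 290.5 against 10.8 and 11.4. Elane molecules came from few cells, since the highest 5% of granule-gene cells held 95.9% of its UMIs in Sin3B+/+ and 93.4% in Sin3B-/- cells. The same share for Prtn3 was 36.8% and 31.5%. Only 48 granule-gene cells of both genotypes had 5 or more Elane UMIs.

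Most granule-gene cells met the rule at its minimum. In Sin3B+/+ cells, 438 had 3 of the genes, 171 had 4 and 60 had all 5. In Sin3B-/- cells the numbers were 172, 82 and 52. The commonest set in Sin3B+/+ cells was Mpo, Ctsg and Prtn3 (294 cells, 43.9%), which made up 20.3% of the Sin3B-/- granule-gene cells (62 cells). Mpo, Prtn3 and Ms4a3 made up 13.5% and 21.9%, and the 4 genes without Elane 21.8% and 23.5%. At the threshold the step was gradual. Cells with 2 of the genes, just outside, had a median of 7 rule-gene UMIs in Sin3B+/+ (1042 cells) and 8 in Sin3B-/- (609 cells), and cells with 3, just inside, had 13 and 17. Cells with all 5 had 110.5 and 193. When the ubiquitous Prtn3 is set aside, 211 Sin3B+/+ and 94 Sin3B-/- granule-gene cells had fewer than 5 UMIs of the other 4 genes together. At the other end, 23 Sin3B+/+ and 34 Sin3B-/- cells had 100 or more, and they held 45.3% and 68.9% of the UMIs of these 4 genes in their genotype's granule-gene cells.

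The label of neutrophil priming was checked against other cell types defined in the same way, by a UMI of 3 of 5 of their own markers. Of the cells with 3 of 5 megakaryocyte-erythroid markers (Gata1, Klf1, Car1, Pf4, Itga2b), which should lack granule proteases, 9.51% of Sin3B+/+ (41 of 431) and 6.12% of Sin3B-/- (33 of 539) also met the granule rule. Their median depth was 17232 and 20940 UMIs. In these cells Elane had a UMI in 0.928% and 2.78%, Ctsg in 11.4% and 5.94%, and Mpo in 13.9% and 7.79%. Among lymphoid-marker cells 23.2% (83 of 357) and 19.6% (30 of 153) met the rule. The granule rule was also applied at 4000 UMIs, with these cell types still chosen on all UMIs. It was then met by 2.33% and 1.11% of the megakaryocyte-erythroid cells, and 12.9% and 5.88% of the lymphoid cells. Conversely, 31.5% of Sin3B+/+ and 42.5% of Sin3B-/- granule-gene cells also had 3 of the 5 stem cell markers Hlf, Mecom, Procr, Fgd5 and Mllt3, against 50.5% and 62.6% of the other cells. In this case the stem cell markers were thinned too. With both counted at 4000 UMIs, the shares were 2.43% and 1.41% of the cells that still met the granule rule, against 24.2% and 30.4% of the rest. The rule thus took in cells that also held UMIs of other lineages' markers, and only 49.8% of its Sin3B+/+ and 46.6% of its Sin3B-/- cells still met it at 4000 UMIs, so they are named here by the rule and not by a cell type.

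Granule-gene cells were a smaller share of Sin3B-/- than of Sin3B+/+ LSK cells. They made up 12.6% of Sin3B+/+ cells (669 of 5302, 11.7 to 13.5) and 8.21% of Sin3B-/- cells (306 of 3727, 7.35 to 9.14), a difference of -4.41 percentage points (-5.65 to -3.14). At 4000 UMIs the shares were 7.08% (329 of 4648) and 4.11% (142 of 3451), a difference of -2.96 points (-3.95 to -1.96). Sin3B-/- cells were deeper as a whole, with a median of 11259 UMIs against 9297.5. The share meeting the rule was also lower in Sin3B-/- cells among megakaryocyte-erythroid and lymphoid cells, as given above. Among cells with 3 of 5 stem cell markers it was 8.27% and 5.73%. Those stem cell marker cells were 2551 of 5302 Sin3B+/+ and 2270 of 3727 Sin3B-/- cells, so the pools differed in make-up. The part of these shares and of the make-up in the difference was not tested. In the homeostasis library, from other mice, the same rule kept 15.2% of Sin3B+/+ cells (1757 of 11579) and 7.26% of Sin3B-/- cells (336 of 4628), and 7.00% and 2.86% at 4000 UMIs. Condition and library coincide, so these levels are not compared with those after 5-FU.

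The smaller share lay in the cells with few of the genes. Cells with exactly 3 were 8.26% of Sin3B+/+ and 4.61% of Sin3B-/- cells, and cells with 4 were 3.23% and 2.20%. Cells with all 5 were 1.13% (0.865 to 1.45) and 1.40% (1.04 to 1.83), with intervals that overlap. At 4000 UMIs the shares for 3, 4 and 5 genes were 5.10%, 1.48% and 0.495% in Sin3B+/+ cells and 2.43%, 1.04% and 0.637% in Sin3B-/- cells. With a rule of at least 4 genes the difference was -0.761 points (-1.56 to 0.0669), an interval that includes 0.

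**Figure D1:**
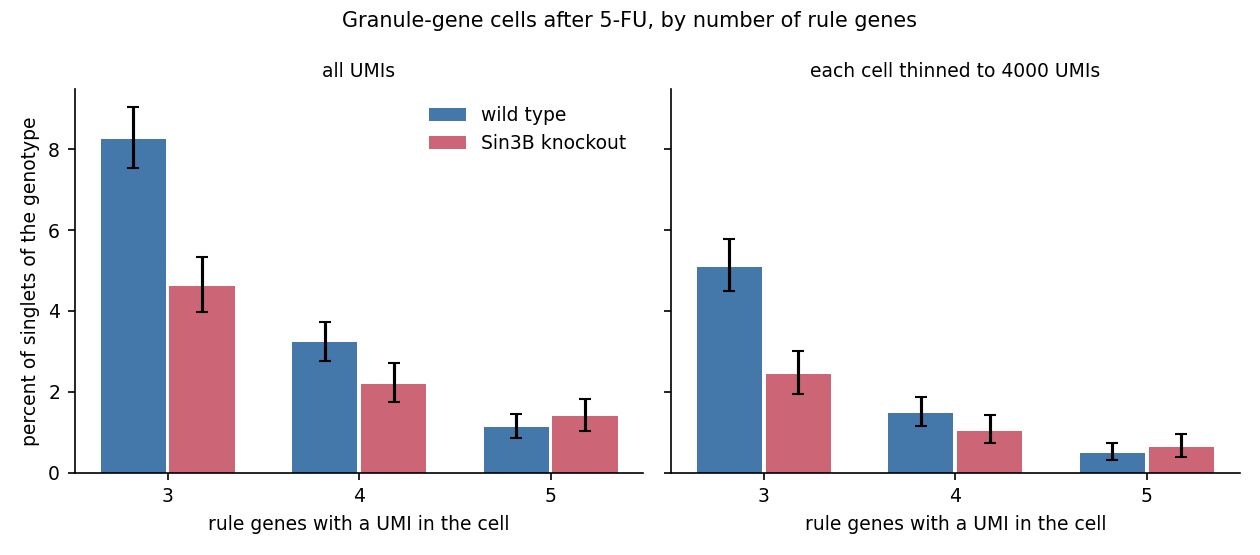
Share of single-hashtag cells of each genotype after 5-FU (y axis, percent) by the number of rule genes with a UMI (x axis), for all UMIs and with each cell thinned to 4000 UMIs. Bars are 1 pool of 2 mice each and error bars are exact 95% binomial intervals for counting error. Sin3B knockout bars stand below wild type at 3 genes (4.61% against 8.26%) and slightly above at 5 (1.40% against 1.13%).

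Several gene lists went step by step with the number of rule genes, in the same order in both genotypes, which is a description since the rule used these cells. The summed level of 12 long-term stem cell genes went from 23.1 UMIs per 10000 in Sin3B+/+ cells with 0 to 2 rule genes to 11.9, 8.18 and 5.90 with 3, 4 and 5. In Sin3B-/- cells it went from 21.8 to 9.17, 5.58 and 4.27. Megakaryocyte and erythroid genes went from 13.5 to 7.51, 4.81 and 4.22 in Sin3B+/+ cells, and they were at 8.55, 4.34 and 2.51 for 3, 4 and 5 rule genes in Sin3B-/- cells. Genes of protein folding in the endoplasmic reticulum, where granule proteins are made, went the other way, from 24.9 to 29.4, 35.4 and 54.7 in Sin3B+/+ and from 26.7 to 35.4, 44.9 and 63.4 in Sin3B-/- cells. Ribosome biogenesis genes went from 42.3 to 50.6, 58.0 and 68.4 and from 41.5 to 55.6, 67.5 and 73.1. Depth went up along the same steps, from a median of 12921.5 UMIs at 3 genes to 24137.5 at 5 in Sin3B+/+ and from 22355.5 to 41115 in Sin3B-/- cells, and its part in these steps was not tested.

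**Figure D2:**
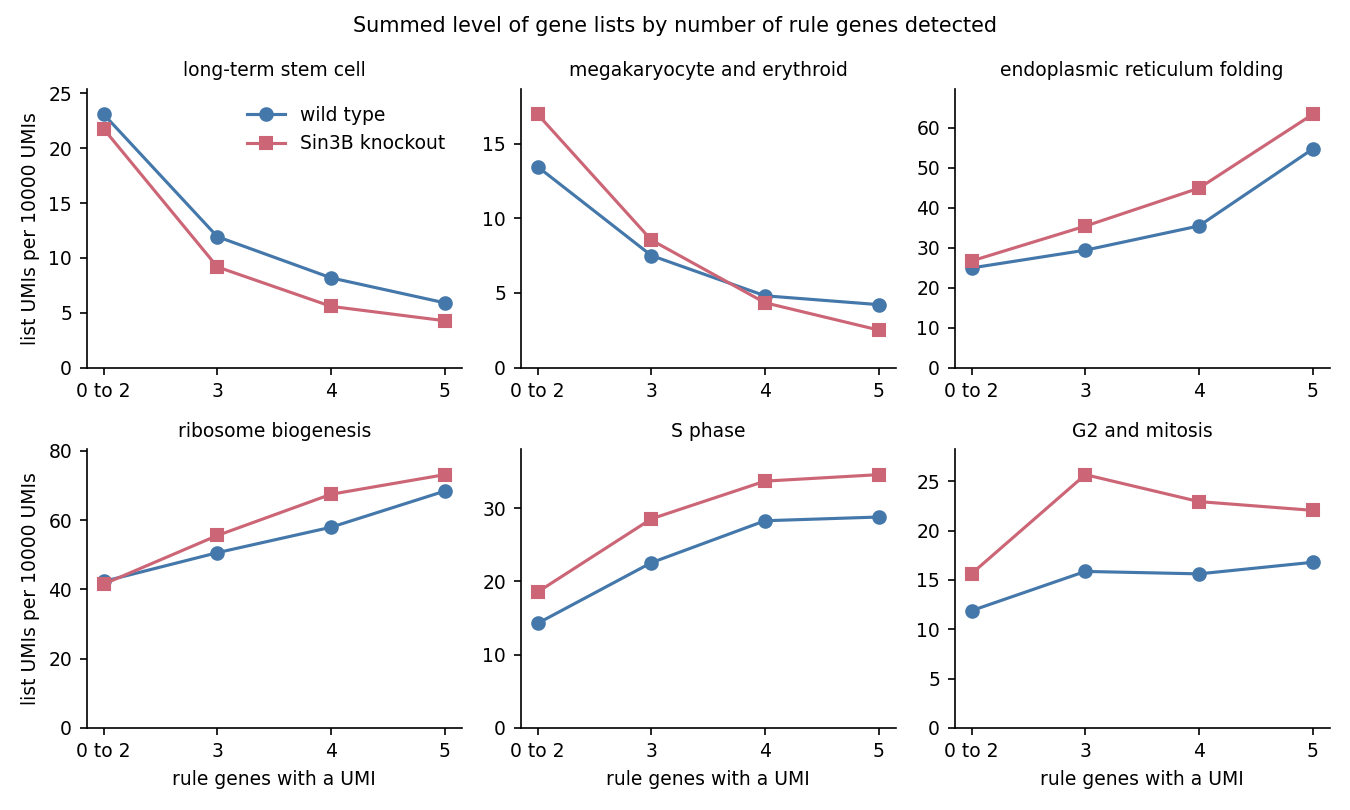
Summed UMIs of 6 gene lists per 10000 UMIs (y axis) in cells with 0 to 2, 3, 4 and 5 rule genes (x axis), Sin3B wild type as circles and knockout as squares. Each point is 1 pool of cells and has no replicate. Stem cell and megakaryocyte-erythroid lists go down with the number of rule genes, from 23.1 to 5.90 for stem cell genes in wild type, and the folding and ribosome lists go up, from 24.9 to 54.7 for folding genes.

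Cebpa went up along these steps, and Cebpe was highest with all 5 genes. Cebpa, the C/EBP factor needed to enter the granulocyte-monocyte path, was at 0.0789 UMIs per 10000 in Sin3B+/+ cells with 0 to 2 rule genes and at 0.290, 0.446 and 0.560 with 3, 4 and 5. The Sin3B-/- values were 0.0635, 0.243, 0.425 and 0.580. Cebpe, which acts later, when secondary granules form, was low until all 5 genes were present, at 0.0108, 0.0331, 0.0182 and 0.221 in Sin3B+/+ and 0.0132, 0.00472, 0.0333 and 0.495 in Sin3B-/- cells. Dntt, an early lymphoid enzyme that edits antigen receptor joints, was at 0.608, 0.719, 0.258 and 0.135 in Sin3B+/+ cells and at 0.238, 0.413, 0.111 and 0.00853 in Sin3B-/- cells. In both genotypes Dntt was highest in the cells with 3 rule genes.

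Against all other cells of the library, 12423 genes had at least 50 UMIs in each genotype's pair of pools. A gene was counted as changed when it differed at least 2-fold in the same direction in both genotypes with counting intervals that left out 0. By this count 123 genes were higher (0.99%) and 714 were lower (5.75%) in granule-gene cells. The median gene was shifted by -0.16 in Sin3B+/+ and -0.22 in Sin3B-/- cells on the log2 scale. With ratios centred on the median gene the counts were 207 higher and 528 lower. The same cells defined the rule and gave these ratios, so they describe the cells and are no test. In homeostasis cells that met the same rule, 95 of the 100 measurable higher genes and 623 of 640 lower genes had the same sign in both genotypes, the rule genes left out, beside 30.0% and 50.9% of all genes there.

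Beyond the rule genes, Trem3 and Mcpt8 were among the 10 genes with the highest lower bounds. Trem3, a myeloid activating receptor, had 9.74 CPM in Sin3B+/+ granule-gene cells against 0.0647 in the other cells, and 17.8 against 0.402 in Sin3B-/- cells (log2 ratios 7.02 and 5.43). Mcpt8, a protease of basophil granules, had 29.5 against 0.884 and 42.4 against 0.536 (5.04 and 6.28), and it was detected in 165 Sin3B+/+ and 107 Sin3B-/- granule-gene cells. Hp, which encodes haptoglobin, a protein that neutrophils store, had 28.0 against 0.626 and 58.3 against 2.44 (5.46 and 4.57). F13a1, the A subunit of coagulation factor XIII made by monocytes, had 17.5 against 0.690 and 14.5 against 0.603 (4.64 and 4.57). All 4 were rare outside the granule-gene cells, and most granule-gene cells held no UMI of each. Trem3 was detected in 33 Sin3B+/+ and 39 Sin3B-/- granule-gene cells, with 26.1% and 19.4% of its UMIs in 1 cell. Hp was detected in 68 and 102, and F13a1 in 63 and 59.

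Clec12a, Fcgr3 and Ly6c2 encode surface proteins and were among the 10 as well. Clec12a, an inhibitory lectin, had 43.0 CPM against 5.20 in Sin3B+/+ and 57.2 against 6.77 in Sin3B-/- cells (log2 ratios 3.05 and 3.08). Fcgr3, a receptor for immunoglobulin G, had 8.30 against 0.949 and 12.9 against 1.54 (3.12 and 3.06). Ly6c2, a monocyte surface antigen, had ratios of 6.16 and 4.13, but 37.0% and 40.7% of its UMIs in granule-gene cells came from 1 cell of each genotype, and reads shared with its near copy Ly6c1 may be missing from it. Dmkn (4.92 and 5.20), Igsf6 (3.86 and 4.34) and Rab44 (2.88 and 3.78) complete the 10 genes with the highest lower bounds. They were detected in 31, 47 and 294 Sin3B+/+ and in 36, 62 and 140 Sin3B-/- granule-gene cells.

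Ebf1, Mzb1 and Cldn5 were among the 10 genes lowest in granule-gene cells. Ebf1, the factor that commits cells to the B lineage, had 2.54 CPM in Sin3B+/+ granule-gene cells against 28.2, and no UMI in Sin3B-/- granule-gene cells against 403 UMIs in the other cells, which is at least 27.9-fold lower when 3 counts are allowed. Mzb1, a chaperone of antibody-making cells, had 5 UMIs against 370, and none against 133 in Sin3B-/- cells (at least 9.20-fold lower). Vpreb3, Igll1 and Cd79a, proteins of early B cells and their receptor, had ratios of -4.68, -4.01 and -3.35 in Sin3B+/+ cells, and 2 UMIs or fewer each in Sin3B-/- granule-gene cells. These low levels rest on few cells. Each gene's highest Sin3B+/+ granule-gene cell held 90% of its UMIs for Ebf1, 90.9% for Vpreb3, 63.6% for Igll1 and 46.2% for Cd79a. Cldn5, a tight junction protein, had no UMI in Sin3B+/+ granule-gene cells against 129 (at least 10.9-fold lower).

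Pf4, a chemokine of platelet granules, had 44.7 CPM against 225.0 in Sin3B+/+ and 67.2 against 520.0 in Sin3B-/- cells (log2 ratios -2.33 and -2.95). Cavin2 had ratios of -2.75 and -2.82, and Timp3, an inhibitor of matrix proteases, -2.80 and -2.74. Cd74, the invariant chain of MHC class II, had 7.29 against 56.3 and 5.17 against 47.7 (-2.94 and -3.19). It was the only gene counted lower on a list of 10 measured monocyte and dendritic genes, 5 of which were higher, beside 5.75% and 0.99% of all genes.

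**Figure D3:**
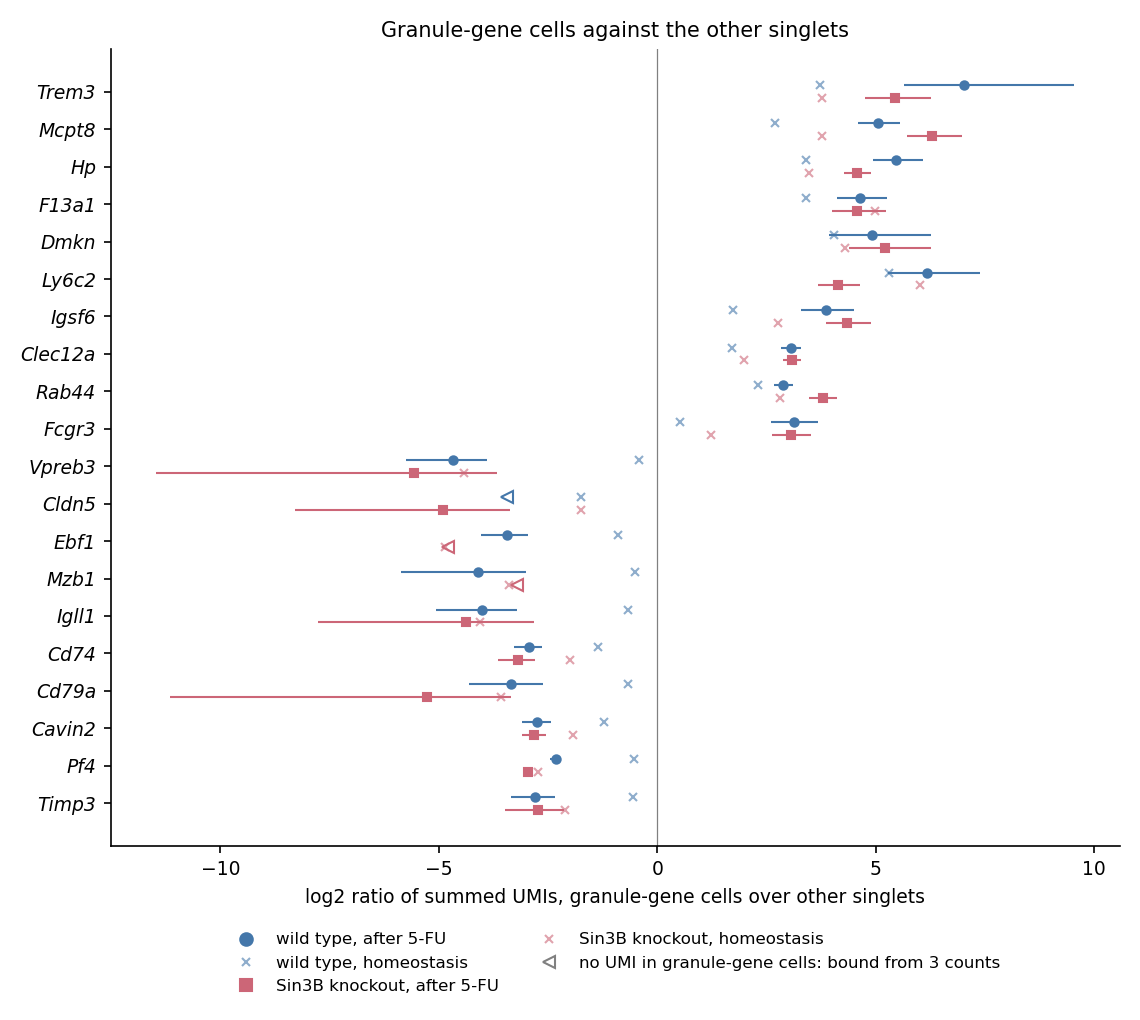
Log2 ratio of summed UMIs in granule-gene cells over the other single-hashtag cells (x axis) for the 10 highest and 10 lowest genes outside the rule (y axis), with 95% counting intervals. Filled symbols are the pools after 5-FU and crosses the same rule at homeostasis, and open arrows are bounds for genes with no UMI. Trem3 stands highest in wild type at 7.02, and Pf4 is at -2.33 in wild type and -2.95 in the knockout.

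Stem cell and platelet-lineage lists were low in the granule-gene cells and 3 granulocyte-monocyte factors were high. Of 12 long-term stem cell genes, 10 were counted lower and none higher (median -1.57 in Sin3B+/+ cells), where 5.75% of all genes were lower and 0.99% higher. Hlf, a factor of stem cell self-renewal, had 205.3 CPM against 532.7 and 137.8 against 443.9. Of 12 megakaryocyte and erythroid genes 6 were lower, and of 10 lymphoid genes 5 were lower, beside the same 5.75%. Among 12 granulocyte-monocyte transcription factors, Cebpa (log2 ratios 2.25 and 2.59), Cebpe (2.43 and 3.37) and Irf8, the monocyte and dendritic factor (2.00 and 1.56), were higher, beside 0.99% of all genes, and Klf4 was lower. Spi1, which encodes PU.1, had 160.5 against 124.9 and 157.2 against 100.6 (0.36 and 0.64). Gfi1, a repressor that favours neutrophils over monocytes, had -0.16 and 0.04. The receptors of G-CSF and GM-CSF were also not counted, with Csf3r at 0.41 and 0.72 and Csf2rb at 0.82 and 1.11.

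Most other primary granule genes were higher than in the remaining cells by less than 2-fold or were close to them. Of 13 measured, 8 had intervals above 0 in both genotypes (16.8% of all genes did), and 2 were at least 2-fold higher in both (0.99% of all genes). Those 2 were Cst7, a cysteine protease inhibitor (2.47 and 2.77), and Prss57, a serine protease of the same granules (1.39 and 1.96), and the list medians were 0.11 and 0.37. Nkg7, a granule membrane protein, was at 0.91 and 1.43, and Serpinb1a, an inhibitor of neutrophil proteases, at 0.69 and 1.02. Srgn, the proteoglycan that packs proteases, had 1279 CPM against 1185 and 1230 against 1164. Of 12 eosinophil, basophil and mast cell genes only 4 were measured, and 3 of them were counted higher, beside 0.99% of all genes. Besides Mcpt8 they were Hdc, which makes histamine (2.98 and 3.88), and the mast cell protease Cpa3 (1.44 and 1.63). The defining eosinophil genes Prg2 and Epx and mast cell genes Cma1 and Tpsb2 had no UMI in granule-gene cells. Prg2 had 27 UMIs in the other Sin3B+/+ and 16 in the other Sin3B-/- cells. Among the monocyte and dendritic genes, the summed level was 207.3 and 206.4 CPM against 146.5 and 118.2.

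Much of the secondary granule signal lay in 3 of the 975 cells. The list of 18 genes had 7298 UMIs in Sin3B+/+ granule-gene cells, of which 66.4% lay in 1 cell and 17.3% in a second. The first had 14461 UMIs in total with no UMI of Mpo or Ctsg and 16 of Elane, but 824 of the cathelicidin gene Camp, 521 of Ngp and 1539 of S100a9. The second had all 5 rule genes and 449 Elane UMIs. In Sin3B-/- granule-gene cells 1 cell, with 638 Elane UMIs, held 34.3% of the 2427 list UMIs. Without these 3 cells the list stood at 100.9 CPM in Sin3B+/+ and 172.5 in Sin3B-/- granule-gene cells. The other Sin3B+/+ cells had 52.7, and the other Sin3B-/- cells had 50.9 once 4 such cells were left out there too (251.5 with them).

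Sin3B-/- was then compared with Sin3B+/+ within the granule-gene cells. Of 10935 genes with at least 50 UMIs over the pair of pools, 56 were at least 2-fold higher (0.512%) and 266 at least 2-fold lower (2.43%) in Sin3B-/- cells with an interval that left out 0. The median gene was at -0.08 on the log2 scale. At any size of difference, 20.7% of all genes had an interval above 0 and 28.5% one below it, and of the 3345 genes with at least 1000 UMIs 40.7% and 30.7% did. In homeostasis cells meeting the rule the shares were 11.1% and 12.2% of all genes. Of the genes measurable at homeostasis under the same rule, in other mice, 37 of 43 higher genes and 187 of 256 lower genes had the same sign there, beside 48.5% and 51.5% of all genes. In the other cells after 5-FU, 51 of 55 measurable higher genes and 243 of 266 lower genes had the same sign. Over all genes there 43.8% and 56.2% did, so most of these differences were not particular to granule-gene cells in direction.

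With the cells and scaling used here, the 5 rule genes lay under the 2-fold line between genotypes, 2 of them close to it. Prtn3 had a log2 ratio of 0.15, Ctsg 0.04 and Mpo -0.12. Elane was at 0.81 (0.72 to 0.90) and Ms4a3 at 0.99 (0.90 to 1.08). Ms4a3 passed the line with ratios centred on the median gene (1.07), and Elane passed it with each of the other hashtag calls (1.02 and 1.08). With the genotypes matched by number of rule genes, Elane was at 0.16 and Ms4a3 at 0.52. Since the rule used these genes, the ratios are a description. Without the 3 cells rich in secondary granule genes, Elane stood at 116.4 CPM in Sin3B+/+ and 204.5 in Sin3B-/- cells.

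The metallothioneins, small proteins that bind zinc and copper, rose in Sin3B-/- granule-gene cells. Mt1 had 800 UMIs over 211 Sin3B+/+ cells and 2633 over 239 Sin3B-/- cells, or 67.8 and 283.5 CPM, a log2 ratio of 2.06 (1.95 to 2.18). Mt2 had 24 and 216 UMIs, a ratio of 3.49 (2.90 to 4.19). The other cells of the library had ratios of 2.33 for Mt1 and 3.74 for Mt2, and homeostasis granule-gene cells 2.09 and 1.59. The ratio was thus above 0 in all 3 sets of cells.

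Il5ra, the interleukin 5 receptor of eosinophil precursors, had 7 UMIs in Sin3B+/+ and 45 in Sin3B-/- granule-gene cells (2.95, 1.87 to 4.42), with 2.59 in the other cells. Id1, an inhibitor of basic helix-loop-helix factors, had 77 and 205 (1.75, 1.37 to 2.16), with 1.33 in the other cells and 1.32 at homeostasis. Slpi, an inhibitor of the neutrophil proteases, had 124 UMIs over 64 cells and 320 over 86 cells, a ratio of 1.71 (1.41 to 2.02), with 0.61 in the other cells and 0.94 at homeostasis. With cells of extreme depth, gene number or mitochondrial share and cells with lineage genes left out, the Slpi ratio was 0.94 (0.41 to 1.46), under the 2-fold line. Tgfbi, a matrix protein made by monocytes, had 124 and 295 (1.59), with 0.55 in the other cells. Gpr84, a fatty acid receptor of myeloid cells, had 10 and 40 UMIs (2.29, 1.32 to 3.51), with 0.28 in the other cells. Zfp979 had 20 and 82 UMIs (2.35) and Hist3h2ba 18 and 77 (2.41). Car1, an erythroid carbonic anhydrase, had the highest ratio, 4.49 (3.56 to 5.81) from 8 and 150 UMIs, but it lay in 8 cells of each genotype and 46.7% of the Sin3B-/- UMIs came from 1 cell. Car1 was at -0.60 (-0.82 to -0.37) in the other cells, at 1.30 in homeostasis granule-gene cells (631 and 304 UMIs), and at 1.74 after 5-FU in cells chosen by 2 of the 5 genes.

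Among the 10 lowest genes, Sin3b was found in the most cells, with 493 Sin3B+/+ and 77 Sin3B-/- granule-gene cells holding a UMI. The Sin3b ratio was -2.86 in the other cells. In homeostasis granule-gene cells it was smaller in size, at -1.89 (-2.22 to -1.59), from 1696 and 89 UMIs. The homeostasis ratios set beside those after 5-FU come from cells with this smaller Sin3b difference. Sin3a, the paralog of Sin3b, had 582 and 429 UMIs, a log2 ratio of -0.09 (-0.28 to 0.09). Tjp1, a tight junction scaffold, had 198 and 13 UMIs (-3.53, -4.52 to -2.78), with -3.01 in the other cells and -1.70 at homeostasis. Slc16a11, of the monocarboxylate transporter family, had 139 and 13 (-3.02), with -4.11 in the other cells and -3.42 at homeostasis. Auts2 had 139 and 14 (-2.92), with -2.22 in the other cells and -1.14 at homeostasis. Mpped2 had 63 and 3 (-3.84), with -2.29 in the other cells and -2.30 at homeostasis. Fcer1a, a chain of the immunoglobulin E receptor of mast cells and basophils, had 109 UMIs over 26 cells and 11 over 3 cells (-2.91), with -4.00 in the other cells. Ccl5, an inflammatory chemokine, had 147 and 5 UMIs, a ratio of -4.40 (-6.18 to -3.28) beside -0.76 in the other cells and -0.12 (-0.68 to 0.37) at homeostasis, and 24.5% of its Sin3B+/+ UMIs came from 1 cell.

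The remaining 3 of the 10 lowest genes were secondary granule genes held by the cells described above. Camp had 970 and 3 UMIs, a log2 ratio of -7.77, with 84.9% of the Sin3B+/+ UMIs in 1 cell. Without the 3 secondary granule cells it had 6 and 2 UMIs. Ngp went from 562 and 3 to 2 and 0, and the chitinase-like Chil3 from 295 and 14 to 10 and 1. In the other cells Camp and Ngp had ratios of 4.93 and 6.06, the opposite sign, where 4 Sin3B-/- cells and no Sin3B+/+ cell drew over 1% of their UMIs from the list. Lcn2, the siderophore-binding protein of the same granules, and Hp were spread over more cells and rose. Lcn2 had 274 and 496 UMIs, a ratio of 1.20, and 86 UMIs over 26 cells against 495 over 97 cells without those 3 cells. Hp had 331 and 541 UMIs (1.05), and 267 over 66 cells against 509 over 101 cells without them.

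**Figure D4:**
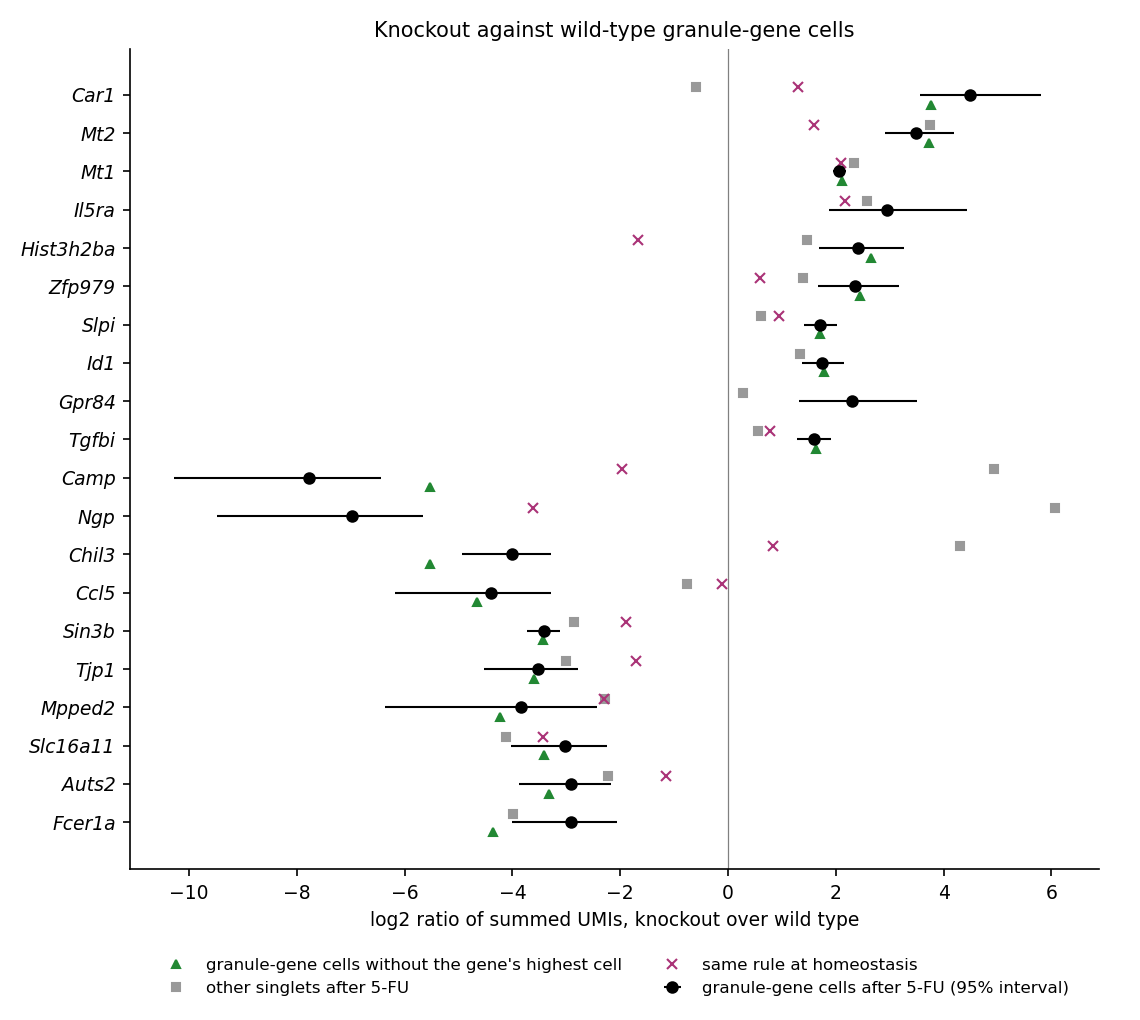
Log2 ratio of summed UMIs in Sin3B knockout over wild-type cells (x axis) for the 10 highest and 10 lowest genes (y axis). Black points with 95% counting intervals are granule-gene cells after 5-FU, triangles the same without each gene's highest cell, grey squares the other cells and crosses the same rule at homeostasis. Mt1 and Mt2 lie above 0 in every set, at 2.06 and 3.49 in granule-gene cells, while Camp lies at -7.77 there and at 4.93 in the other cells.

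Cell cycle genes were higher in Sin3B-/- granule-gene cells, most by less than 2-fold. All 20 genes of a G2 and mitosis list had intervals above 0 (20.7% of all genes did). Of these, 15 had at least 1000 UMIs, and 40.7% of all genes that abundant had an interval above 0. The list's median log2 ratio was 0.74, beside -0.08 over all genes. Only Plk1, a mitotic kinase, passed the 2-fold line (160 and 272 UMIs, 1.11). Cdk1, the kinase that starts mitosis, had 819 and 984 UMIs (0.61), Ccnb1, its cyclin, 356 and 504 (0.85), and the proliferation antigen Mki67 3447 and 3914 (0.53). The same list had a median of 0.43 in the other cells and -0.06 in homeostasis granule-gene cells. At homeostasis 1 of its genes had an interval above 0 and 5 below, beside 11.1% and 12.2% of all genes there. Of 20 S phase genes 19 had intervals above 0 and none below (median 0.31), among them all 18 with at least 1000 UMIs. The S phase median was 0.39 in the other cells and 0.04 at homeostasis. The difference was present at each number of rule genes, with the G2 list at 15.9, 15.6 and 16.8 UMIs per 10000 for 3, 4 and 5 genes in Sin3B+/+ cells and at 25.7, 22.9 and 22.1 in Sin3B-/- cells. G1 regulators were mixed (median 0.08), with Ccne1 at 0.79 and Cdk6 at -0.51.

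Per cell, at 4000 UMIs, 28.0% of Sin3B+/+ granule-gene cells (185 of 660, 24.6 to 31.6) and 50.5% of Sin3B-/- ones (154 of 305, 44.7 to 56.2) had 5 or more UMIs of the G2 and mitosis list. The other cells had 13.6% and 17.1%. For the S phase list the shares were 60.8% (401 of 660) and 79.0% (241 of 305), against 28.2% and 32.7%. Without thinning the G2 shares were 53.1% and 80.7% in granule-gene cells and 21.9% and 28.4% in the other cells, and the S phase shares 89.8% and 95.1%, and 57.7% and 63.2%. Sin3B-/- granule-gene cells also held more UMIs per cell, as given above, and the part of cell size in this difference was not tested.

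**Figure D5:**
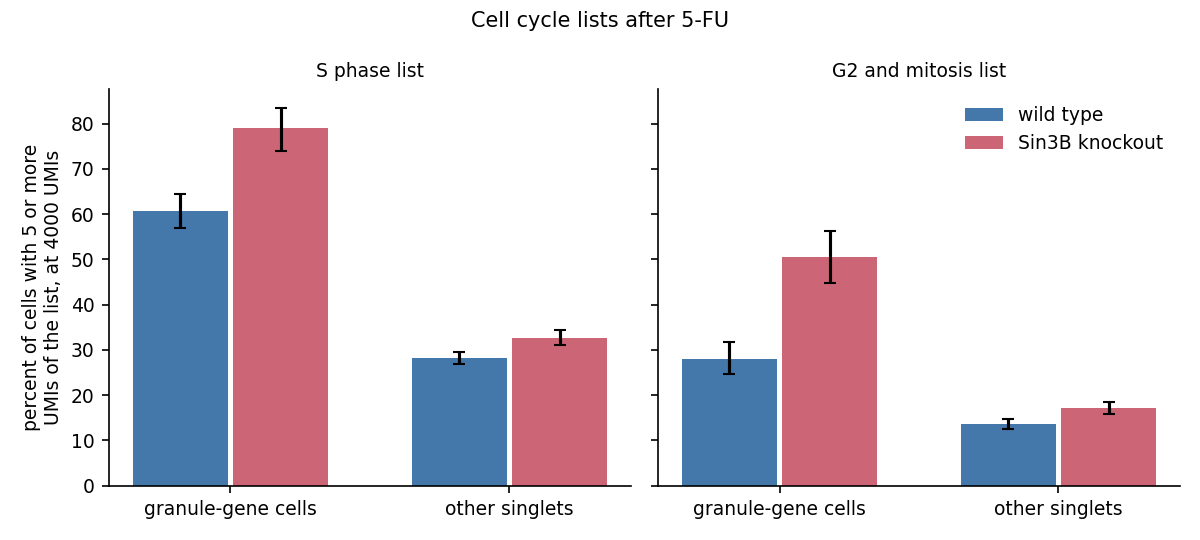
Percent of cells with 5 or more UMIs of the S phase list (left) or the G2 and mitosis list (right) after thinning each cell to 4000 UMIs (y axis), in granule-gene cells and the other single-hashtag cells after 5-FU. Bars are 1 pool each, with exact 95% binomial intervals for counting error. Granule-gene cells stand above the other cells, and the knockout above wild type, at 50.5% against 28.0% for G2 and mitosis.

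Growth programs went the same way with small sizes. In the endoplasmic reticulum folding list 14 of 15 genes had intervals above 0 and none below, and of its 13 genes with at least 1000 UMIs 12 did, beside 40.7% of all genes that abundant. The list's median was 0.38 (beside 0.12 in the other cells and 0.06 at homeostasis). Calr, the chaperone calreticulin, had 1051 and 1482 CPM (0.50), and Sdf2l1 590 and 815 UMIs (0.81). Of 15 ribosome biogenesis genes 13 had intervals above 0, 10 of them among 11 with at least 1000 UMIs (median 0.23, with 0.05 and -0.09). None of these genes passed the 2-fold line.

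Immediate early genes, which cells switch on within minutes of a stimulus, were lower. Of 12 measured, 10 had intervals below 0 and none above (median -0.62), beside 28.5% of all genes below 0. All 9 with at least 1000 UMIs were below 0, beside 30.7% of all genes that abundant. Egr1 and Fosb fell by over 2-fold. Egr1 had 192.9 CPM in Sin3B+/+ and 71.6 in Sin3B-/- granule-gene cells, a log2 ratio of -1.43 (-1.56 to -1.31), and Fosb 75.4 and 34.3, or -1.13. Fos had 188.5 and 94.3 CPM. The medians were -0.58 in the other cells and -0.41 in homeostasis granule-gene cells. At homeostasis 7 of 12 genes had intervals below 0 and none above, beside 12.2% and 11.1% of all genes there. The list was lower in granule-gene cells than in the other cells in both genotypes (medians -0.63 and -0.81), with 9.04 and 7.48 UMIs per 10000 in cells with all 5 rule genes against 23.3 and 16.0 in cells with 0 to 2.

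Of 11 granulocyte-monocyte transcription factors, 5 had intervals below 0 and 1 above, beside 28.5% and 20.7% of all genes. The list's median was -0.03, beside -0.08 over all genes, and ranged from -0.26 to 0.05 under the alternatives. Its summed level, to which the abundant genes add most, had a log2 ratio of -0.31 (-0.34 to -0.27). Cebpa had 444 and 354 UMIs (0.02) and Spi1 1894 and 1460 (-0.03). Cebpe rose, from 69 to 127 UMIs or 5.85 to 13.7 CPM, a log2 ratio of 1.22 (0.79 to 1.67), and was at 3.91 and 12.4 without the 3 secondary granule cells. Irf8 was at -0.48, Myb at -0.40 and Myc at -0.39. The median of 13 primary granule genes was 0.01, and the highest were Hexa, a lysosomal hexosaminidase chain, at 0.83 (0.68 to 0.98) and Prss57 at 0.71. Of 12 receptors 6 had intervals below 0 and 1 above (median -0.47), where 28.5% of all genes did, among them Flt3 (-0.70), the stem cell factor receptor Kit (-0.60) and the M-CSF receptor Csf1r (-0.82), while Csf3r was at -0.07. Hdc rose, from 109 to 187 UMIs (1.12), and Mcpt8 was at 0.52 and Cpa3 at -0.28. Of 10 monocyte and dendritic genes only Ly86 passed the line, at -1.51 from 52 and 14 UMIs.

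Lists of other lineages and states differed in direction. All 5 measured lymphoid genes had intervals below 0 (28.5% of all genes did), with a median of -0.82 beside -0.08 over all genes and with Dntt at -1.16 (588 and 207 UMIs) and the chromatin organizer Satb1 at -1.28 (1429 and 463 UMIs). The lymphoid list was also lower in the other Sin3B-/- cells (-1.15) and at homeostasis (-0.92). Il7r had 19 and 0 UMIs, with 68.4% of the Sin3B+/+ UMIs in 1 cell. Of 12 stem cell genes 6 had intervals below 0 and 2 above (median -0.33), beside 28.5% and 20.7% of all genes, including Hlf at -0.57 and Txnip at -0.90, and Fgd5 fell (-1.01, 62 and 24 UMIs). That list had a median of 0.10 in the other cells. Megakaryocyte and erythroid genes had a median of 0.09. The 9 measured p53 targets had a median of -0.17 (3 intervals below 0, 1 above), with Bbc3 (-1.33) and Trp53inp1 (-1.02) lower. The 14 measured interferon response genes had a median of -0.09 (6 intervals below 0, 2 above). Of those, Ifit1 (-1.72) and Irf7 (-1.25) were lower and Cxcl10 (1.85) higher, the last with 81.6% of its Sin3B-/- UMIs in 1 cell. Over all genes 28.5% had intervals below 0 and 20.7% above, and 2.43% were at least 2-fold lower and 0.512% higher. The SIN3 complex list, Sin3b included, had a median of -0.12.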

How the data were processed

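LSK cells of 1 pool of 2 mice per genotype were profiled by 10x Genomics 3′ sequencing, with cDNA and hashtag libraries for each condition (4 samples). The deposited matrices hold counts: the authors made UMI counts per gene and hashtag with Cell Ranger (6.0.1 after 5-FU, 4 at homeostasis, per the file headers), and the labels name build mm9 without giving its role. HTODemux (Seurat 5.3.0, R 4.3.3, quantile 0.99) assigned hashtags, on all barcodes after 5-FU and on barcodes with at least 2921 UMIs at homeostasis. Barcodes with both hashtags were dropped, and doublets within a genotype remain, since no doublet caller was run. The study also removed cells with extreme quality values, lineage markers or genes of lineage-primed stem cells, and its 5-FU set was smaller. The main results here apply none of these filters. The quality filter among the alternatives removes extreme cells and cells with lineage genes only. Of the single-hashtag cells, 33 barcodes occurred in both libraries, 0 of them among granule-gene cells.

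UMIs were summed per genotype and divided by the pool total (Python 3.11.15, numpy 2.4.6, scipy 1.17.1, pandas 2.3.3). Ratios are log2 with 0.5 added, with exact conditional binomial intervals. Shares have Clopper-Pearson intervals and their differences Newcombe intervals. All of them cover counting error only. The ratio and its interval were tested on simulated pool counts drawn around the real pools' means. Those counts held no clustering of a gene's UMIs in few cells, and the intervals leave such clustering out too. A count model over the 4 pools of granule-gene and other cells was not run. Genes named were the 10 highest and 10 lowest by the interval bound nearest 0, plus from each of 21 gene lists its extremes and defining genes, with Sin3b and Sin3a. The members and lists were chosen with earlier results of these data known, and 1 list, of genes earlier seen to differ between genotypes on these samples (median -1.43, summed ratio 0.22), supports nothing. The lineage genes of the sort had 1 measured member of 9 (-0.58). Promoters are RefSeq's on GRCm38.p6, another build than the label's, so no coordinate of the files is used. Alternatives changed the depth, the number of rule genes, cell filters, hashtag calls, scaling and the count minimum. Leaving out cells rich in secondary granule genes, or each gene's highest cell, was added after seeing the data.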

Additional observations from a re-analysis of the deposited data

Results flagged for a closer look

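Between conditions, 2 of the genes named had opposite ratios of Sin3B-/- over Sin3B+/+ in cells meeting the rule, each with intervals that left out 0. Hist3h2ba, a histone gene, had a log2 ratio of 2.41 after 5-FU and -1.67 at homeostasis (89 and 5 UMIs), and Chil3 had -4.00 after 5-FU and 0.83 at homeostasis (96 and 33 UMIs). The difference between conditions was not tested, since each rests on 1 pool per genotype and each condition is 1 library.

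Barcodes that the comparisons left out also met the rule. Of 3290 barcodes with no hashtag assigned, 200 did (6.08%), with a median of 10612.5 UMIs, and of 434 barcodes with both hashtags 111 did (25.6%), with a median of 33795. Their genotype is not known, and the difference from the single-hashtag cells was not tested.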

How the results depend on the processing

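No paired analysis was possible because each genotype is 1 pool per library, and for the same reason no replicate could be left out. The Sin3B-/- minus Sin3B+/+ difference in the share of granule-gene cells stayed below 0 under all 6 alternatives. It was -2.96 points with cells thinned to 4000 UMIs, -0.761 with 4 of 5 genes required (interval up to 0.0669) and -7.72 with 2 of 5. With the quality filter it was -5.98. That filter kept 584 of the 669 Sin3B+/+ but 200 of the 306 Sin3B-/- granule-gene cells, so it took out a larger part of the Sin3B-/- ones. Both other hashtag calls moved the difference by less than its counting interval. Genes at least 2-fold higher in Sin3B-/- granule-gene cells numbered 90 with 2 of 5 genes, 23 with a minimum of 200 UMIs and 130 with none. Lower genes numbered 140 when thinned, 131 with the quality filter, 59 at 200 UMIs and 482 with none. Genes higher than in the other cells numbered 207 with median scaling, 187 by mean per-cell level and 66 at 200 UMIs, and lower genes 297 when thinned, 310 with 2 of 5 genes and 387 at 200 UMIs. The other 39 alternatives to these results stayed within 1.5 times the main count or the interval of the share. A similar count can hold other genes. Thinned cells counted 59 genes higher in Sin3B-/- cells, 5 of them shared with the reported 56. With 4 of 5 genes 45 higher and 178 lower genes were counted, 26 and 87 of them shared. With the quality filter 39 and 131 were counted, 21 and 102 of them shared. Thinned cells left 8 of the 56 higher and 32 of the 266 lower genes measurable, all 40 with the same sign, of which 5 and 23 were counted again. Without the secondary granule cells 56 and 262 genes were counted, 54 and 257 of them shared with the reported ones, and without each gene's highest cell 54 and 288, with 49 and 242 shared.

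Ngp reversed to 0.27 with 2 of 5 genes, because that rule takes in a Sin3B-/- cell rich in it, and Camp was at -0.56 and Chil3 at -0.76, both under the 2-fold line. Over all named genes and alternatives other than Ngp there, 236 values moved by less than their intervals and 56 by more. Without its highest cell in each pool Camp was at -5.53, Chil3 at -5.54 and Fcer1a at -4.36. The median of the G2 and mitosis list ranged from 0.37 (quality filter) to 0.82 and stayed above 0, as did folding (0.28 to 0.46) and S phase genes (0.24 to 0.44) and ribosome biogenesis (0.046, quality filter, to 0.30), and immediate early genes stayed below (-0.79 to -0.39). The secondary granule list ranged from -2.30 to 0.18, the interferon list from -0.21 to 0.29 and the megakaryocyte and erythroid list from -0.60 to 0.40. Elane rests on few cells, since 1 cell in each genotype held 24.5% and 25.2% of its UMIs in granule-gene cells.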
